A study of Mus musculus with 8 samples.

Results

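The genes of activin signalling in these data were 9 members: the receptors Acvr1c, Acvr1b, Acvr1, Acvr2a and Acvr2b, the inhibin subunits Inhba, Inhbb and Inha, and the activin antagonist follistatin, Fst. They were chosen by name among 34836 gene names on the array, with their levels in the 3 nuclei already known, so their values are a description and carry no test. All 9 were on the array, with 14 of its 55681 probes. The material was RNA from pooled neurons of the Nkx2-1 lineage, cut out by laser from the arcuate nucleus (Arc, 2 samples), the ventromedial hypothalamus (VMH, 3 samples) and the dorsomedial hypothalamus (DMH, 3 samples). Every sample came from female mice aged 2 months that carried both Nkx2-1-CreERT2 and the Rosa-ZsGreen reporter and had received tamoxifen. Cre under Nkx2-1 marks only cells in which Nkx2-1 was active when tamoxifen was given, and no sample without these alleles or without tamoxifen was compared. The number of animals behind each pool is not stated, so the spread between samples of a nucleus may be partly technical. The series asks which genes distinguish the 3 nuclei.

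Activins are dimers of inhibin beta subunits, and inhibins pair a beta subunit with the alpha subunit encoded by Inha. An activin binds a type II receptor kinase, Acvr2a or Acvr2b, which recruits and phosphorylates a type I receptor, Acvr1b (ALK4) or Acvr1c (ALK7), which in turn phosphorylates Smad2 and Smad3. Follistatin binds activin outside the cell and blocks it, and inhibins oppose activin at the type II receptors. The system is best known for the control of follicle-stimulating hormone in the pituitary, and several of its members are also made in the brain.

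Each sample was hybridised to 1 array of a single slide, in 1 colour. A level below is the log2 processed spot signal minus the 75th percentile of the array, so 0 is the signal of that percentile. The percentile lay between 1806 and 3042 signal units, and 72.4% to 78.7% of probes were well above background by the scanner software's flag. Levels of different probes are not comparable, since each probe binds with its own strength. The marker sums of the 3 nuclei followed the labels. The summed signal of 8 arcuate markers, in units of the percentile, was 141 to 181 in Arc and 6.46 to 8.53 elsewhere. That of 8 VMH markers was 65.4 to 81.8 in VMH and 8.92 to 36.7 elsewhere, and that of 8 DMH markers was 25.2 to 29.8 in DMH and 0.993 to 4.02 elsewhere. Fezf1, a VMH marker, was not well above background in Arc and DMH, and Grp, a DMH marker, was not in Arc and VMH. Other markers of these lists separated the nuclei less. Nptx2, a VMH marker, had mean levels of 4.806 in VMH and 4.802 in DMH. The DMH markers Bsx, Hmx2 and Hmx3 overlapped between DMH and Arc. Their mean levels were 1.146, 0.907 and -1.553 in DMH and 0.486, 0.657 and -1.665 in Arc. All 6 general neuronal markers were well above background on all 8 arrays, with summed signals of 236 to 242 in Arc, 196 to 242 in VMH and 155 to 195 in DMH. Markers of glia were present too: 7 or 8 of 8 astrocyte markers and all 8 microglial markers were well above background on each array.

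Acvr1c, the type I receptor ALK7, which transmits signals of activin B and Nodal-related ligands, had the widest range among the members. It was measured in Arc and VMH by its brighter probe, and was not well above background on any DMH array by either of its probes. The first 30 bases of both probes are shown because they carry this difference; the probes lie on the minus strand of chromosome 2 (mm9), 4296 bases apart. Whether a probe lies in an exon or a UTR was not analysed here.
Acvr1c probe 1, chr2:58119918-58119947: caaagacaatgaattaagcactcgttgcac
Acvr1c probe 2, chr2:58124274-58124303: cataattgtatgaaaatagtaacctgatcg

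By the brighter probe 1 of Acvr1c, the level was -0.78 and -1.66 in Arc, -1.09, -3.22 and -1.83 in VMH, and -6.78, -6.42 and -6.37 in DMH. The processed signals behind these were 1056 and 571.3 in Arc, 958.9, 200.4 and 558 in VMH, and 27.65, 27.18 and 25.56 in DMH. The 3 DMH arrays lay far below the other 5, and the Arc and VMH arrays overlapped. Group means were -1.22 ± 0.62 (SD, n = 2) in Arc, -2.04 ± 1.08 (SD, n = 3) in VMH and -6.52 ± 0.23 (SD, n = 3) in DMH. Because DMH gave no signal well above background, the fold is a bound, set against the lowest signal among probes well above background on each DMH array. Acvr1c read below that signal on every DMH array. Some other probes missed the flag while reading above it, so the bound holds on this basis only. On that basis Acvr1c was at least 12.6-fold higher in Arc than in DMH, and at least 7.14-fold higher in VMH than in DMH. Arc and VMH, neighbours in the order of levels, differed by -0.82 ± 0.58 (VMH minus Arc, log2, SE), which is within their spread.

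Probe 2 of Acvr1c gave the same order of nuclei with dimmer signals. Its level was -1.78 and -3.15 in Arc, -4.38, -4.79 and -2.96 in VMH, and -6.84, -6.44 and -6.28 in DMH. VMH replicates 1 and 2 were not well above background by this probe, so only 1 of 3 VMH arrays measured it. By it Acvr1c was at least 5.34-fold higher in Arc than in DMH, and no fold is given for VMH. In pooled cells, fewer cells that express a gene and less RNA per cell cannot be told apart.

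All DMH arrays lay below all others for 5.67% of 27324 genes and above all others for 3.6%. Of the 7 members measured, Acvr1c was the 1 below, and 0 were above. Acvr1c counts as measured through Arc and VMH alone and was chosen with its levels known, so nothing is read from this count. The arrays lie on the slide in 2 rows, each holding all 3 nuclei. In the first row Acvr1c stood at -1.66 in Arc, -1.83 in VMH and -6.60 in DMH, and in the second row at -0.78, -2.15 and -6.37. Since all DMH arrays lay below all others, DMH had to be the lowest in both rows, and the rows are no further check. The same holds for the row values given below wherever the arrays of a nucleus did not overlap the others. Against the mean of Arc and VMH, the bound was at least 9.49-fold lower in DMH. The fitted log2 difference reads DMH at its background signal and so has no measured size: it was -4.89 ± 0.47 (SE), and -2.55 with normexp background correction, which adds an offset of 50 signal units.

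The summed signal of some markers of other cell types followed this order of nuclei, though single markers did not all do so. The summed signal of the 8 microglial markers was 212 to 243 in Arc, 160 to 189 in VMH and 112 to 150 in DMH, mostly from Itgam and Csf1r. In DMH 4 of these 8 had a difference above 0 and 4 below, and none passed the test in any nucleus (limma, adjusted p under 0.05). The summed signal of the 8 tanycyte and ependymal markers was 4.77 to 5.48 in Arc, 3.84 to 4.64 in VMH and 2.22 to 3.72 in DMH. Among these, Col23a1 was lower in DMH (log2 difference -1.83, limma adjusted p = 0.0358) and Crym was higher in VMH (1.84, limma adjusted p = 0.0298). Nes was not well above background in DMH, and Tmem212 on no array. The endothelial and mural sum was 4.08 to 4.38 in Arc, 3.25 to 3.44 in VMH and 2.67 to 3.64 in DMH, and none of its markers passed. The number of its 8 markers well above background went the other way, with 7 on each DMH array, 5 or 6 in Arc and 5 in VMH. Cdh5 was well above background on 3 DMH arrays and Pdgfrb on 2, and neither was on any Arc or VMH array. The astrocyte sum overlapped between nuclei, at 47 to 54.1 in Arc, 49 to 59.7 in VMH and 41.3 to 52.7 in DMH. Of its 7 measured markers 6 had a difference above 0 in DMH, and Gjb6 was higher there (log2 difference 1.19, limma adjusted p = 0.0358). The part of these cells in the levels of Acvr1c was not tested.

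Acvr1b, the type I receptor ALK4, is the main signalling partner of activin A. It was measured on all 8 arrays by both probes and was highest in VMH by both. The probes lie on the plus strand of chromosome 15 (mm9), 1046 bases apart, and their first 30 bases are shown because they disagree on which nucleus stands alone.
Acvr1b probe 1, chr15:101042850-101042879: aattctccagactcaaacgcacatagttca
Acvr1b probe 2, chr15:101043956-101043985: gtacaatttattagaaaggactgtaaaata

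By probe 1, the level of Acvr1b was -0.02 and -0.46 in Arc, 1.03, 0.87 and 0.90 in VMH, and 0.18, -0.39 and 0.27 in DMH. All VMH arrays lay above all others, which held for 5.48% of genes, against 4.03% with all VMH arrays below, and Arc and DMH overlapped. VMH exceeded the mean of Arc and DMH by 1.04 ± 0.22 (log2, SE), Arc by 1.17 ± 0.27 and DMH by 0.91 ± 0.24. By probe 2 the level was -1.30 and -1.60 in Arc, 0.04, 0.23 and -0.08 in VMH, and -0.04, -0.85 and -0.37 in DMH. Here both Arc arrays lay below all others, while DMH replicate 1 reached into the VMH range. By the brightest probe of each gene, the Arc arrays lay below all others for 6.66% of genes. Acvr1b was not among these, since its probe 1 overlapped. The probes thus agreed that VMH exceeded Arc and differed on whether DMH stood with Arc or near VMH. Within the slide rows, probe 1 gave 0.90 and 0.95 in VMH against -0.11 and 0.27 in DMH and -0.46 and -0.02 in Arc. The summed signal of 8 oligodendrocyte markers was also highest in VMH, at 19 to 29 against 9.79 to 18.1 in Arc and 14.8 to 21 in DMH, with Mog not well above background in Arc. None of the 8 passed the test in any nucleus, and their part in the levels of Acvr1b was not tested.

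Acvr1, the type I receptor ALK2, serves mainly bone morphogenetic proteins (BMPs) and can also bind activin without passing on its signal. Its 3 probes showed no order of nuclei in common. By probe 1, which stands for the gene, the level was 1.53 and 1.46 in Arc, 1.34, 1.26 and 1.41 in VMH, and 1.77, -0.15 and 1.01 in DMH. DMH held both the highest and the lowest array and overlapped the other nuclei, while both Arc arrays lay just above the VMH arrays. Probe 2 ranged from -0.18 to 1.05 and probe 3 from -3.59 to -2.11 over the 8 arrays, and by these probes each nucleus overlapped the others. The largest difference between nuclei by probe 1, DMH minus Arc, was -0.62 ± 0.48 (log2, SE). Acvr1c and Acvr1 lie near each other on chromosome 2, with 3 predicted or uncharacterised genes between them in RefSeq (GRCm38.p6). All 3 probes of Acvr1 were well above background throughout, DMH included, where Acvr1c was not.

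The type II receptors Acvr2a and Acvr2b, which bind activin first, were both measured in all nuclei, and their ranges were narrow. Acvr2b stood at 3.44 and 3.08 in Arc, 3.43, 3.49 and 3.81 in VMH, and 2.91, 2.59 and 3.48 in DMH. The VMH mean was highest and the DMH mean lowest, but the arrays overlapped, and VMH minus DMH was 0.58 ± 0.27 (log2, SE). Acvr2a stood at -0.60 and -0.03 in Arc, 0.01, -0.08 and -0.23 in VMH, and -0.23, -0.38 and -0.55 in DMH. Its nucleus means lay within 0.29 of each other, the narrowest range among the 7 members in the fit. VMH and DMH met at -0.23, and the Arc arrays spanned most of both. A second, dimmer probe of Acvr2a ranged from -6.28 to -2.49 and was not well above background on VMH replicate 1 and DMH replicate 2.

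**Figure D1:**
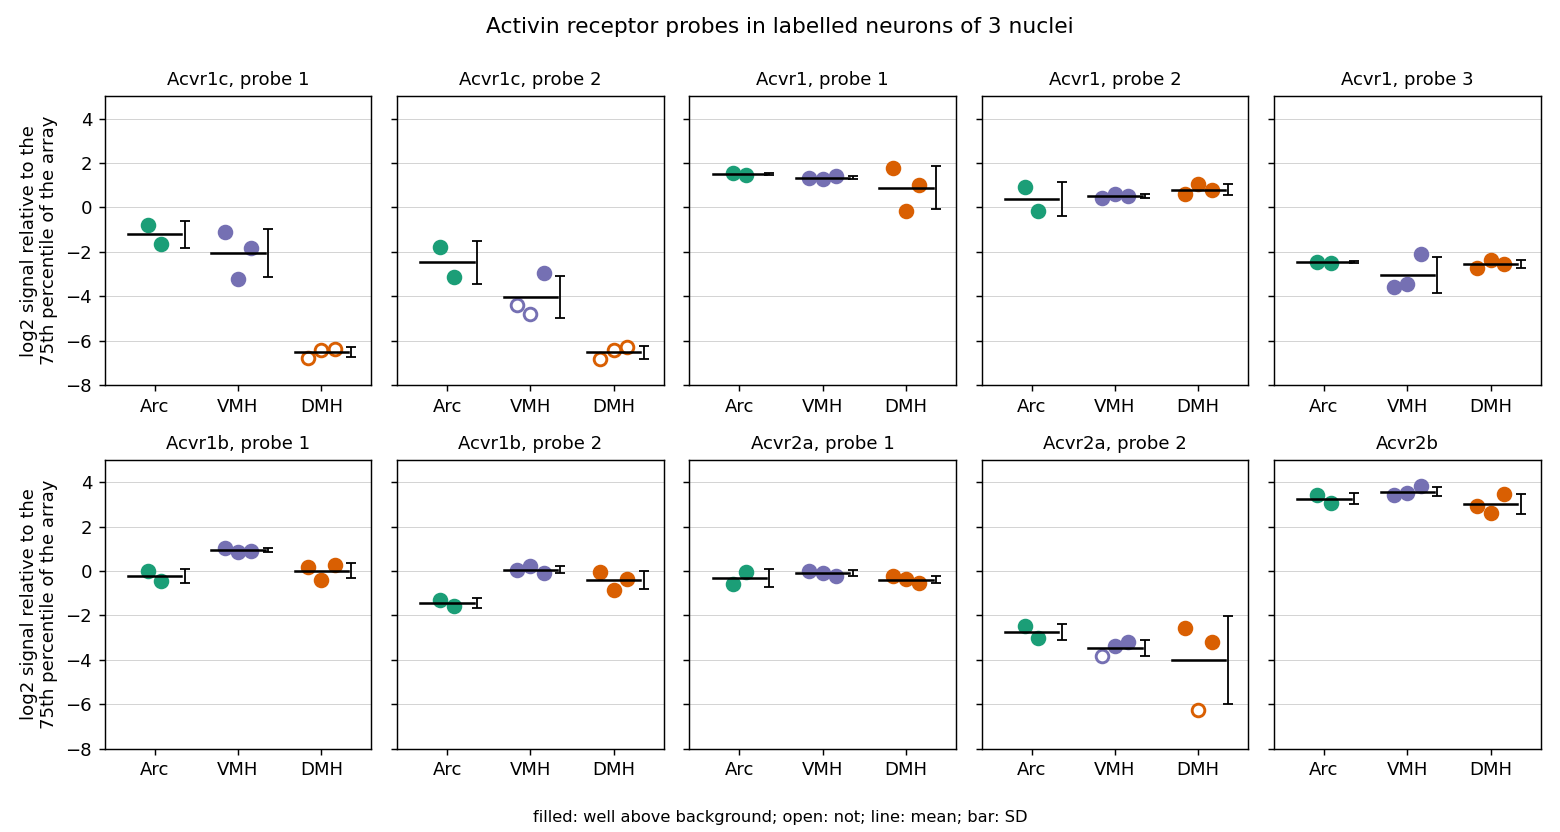
Levels of the 10 probes of the 5 activin receptors by nucleus, as log2 signal minus the array's 75th percentile; each point is 1 array (2 Arc, 3 VMH, 3 DMH), filled where well above background and open where not, with the mean as a line and the SD as a bar. Both Acvr1c probes are open in all 3 DMH arrays, at -6.84 to -6.28, and the 3 VMH arrays of Acvr1b probe 1, at 0.87 to 1.03, lie above all others.

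Inhbb encodes the inhibin beta B subunit, which forms activin B as a dimer with itself and inhibin B with the alpha subunit. Its level was 2.21 and 1.66 in Arc, 1.20, 0.83 and 0.83 in VMH, and 0.98, 0.71 and 0.60 in DMH. Both Arc arrays lay above all others, and VMH and DMH overlapped. Group means were 1.93 ± 0.39 (SD, n = 2) in Arc, 0.95 ± 0.21 (SD, n = 3) in VMH and 0.76 ± 0.20 (SD, n = 3) in DMH. Arc exceeded the mean of VMH and DMH by 1.08 ± 0.23 (log2, SE). The value was 0.80 without Arc replicate 1 and 1.35 without Arc replicate 2.

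Inha encodes the alpha subunit, which is found in inhibins and not in activins. Its level was 0.37 and 0.63 in Arc, 0.15, 0.13 and -0.29 in VMH, and -1.01, -0.61 and -0.11 in DMH. Both Arc arrays again lay above all others, and 1 VMH array fell within the DMH range. Group means were 0.50 ± 0.19 (SD, n = 2) in Arc, -0.01 ± 0.25 (SD, n = 3) in VMH and -0.58 ± 0.45 (SD, n = 3) in DMH. DMH minus Arc was -1.08 ± 0.30 (log2, SE). All Arc arrays lay above all others for 10% of genes, and Inhbb and Inha were the 2 of 7 members measured for which this held. Within the slide rows Inhbb stood at 1.66 and 2.21 in Arc against 0.83 and 1.02 in VMH and 0.85 and 0.60 in DMH. Inha stood at 0.63 and 0.37 in Arc against -0.29 and 0.14 in VMH and -0.81 and -0.11 in DMH. The microglial, tanycyte and ependymal, and endothelial and mural marker sums given above were also highest in Arc. Of their measured markers 6 of 8, 5 of 7 and 4 of 6 had a difference above 0 there, and 2 of each list were below. None passed in Arc, and the lowest were Ccdc153 at -0.79 and Crym at -0.93. The part of these cells in the levels of Inhbb and Inha was not tested.

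The beta A subunit, Inhba, which forms activin A, and Fst were too dim for the comparison between nuclei. The first 30 bases of the Inhbb probe and of both dim probes (mm9) are shown to set a measured subunit beside them.
Inhbb, chr1:121312190-121312219, minus strand: tgactggtggagtgaaggtgtgtgctgtaa
Inhba, chr13:16118634-16118663, plus strand: tcaacatttgctgtaagaaacagttctttg
Fst, chr13:115243595-115243624, minus strand: caccaatgttcagtgttgacatagcctttg

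The Inhba probe read -6.25 and -6.29 in Arc, -6.47, -6.33 and -4.27 in VMH, and -6.13, -6.64 and -2.59 in DMH. It was well above background on DMH replicate 3 alone, where the processed signal was 349.8. The Fst probe read -6.25 and -6.30 in Arc, -6.47, -3.73 and -3.74 in VMH, and -3.95, -6.65 and -1.60 in DMH. It was well above background on 2 of 3 VMH arrays, on 2 of 3 DMH arrays and on no Arc array. No nucleus had either probe above background on all of its arrays, so no difference is given for Inhba and Fst. The highest array was DMH replicate 3 for both.

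**Figure D2:**
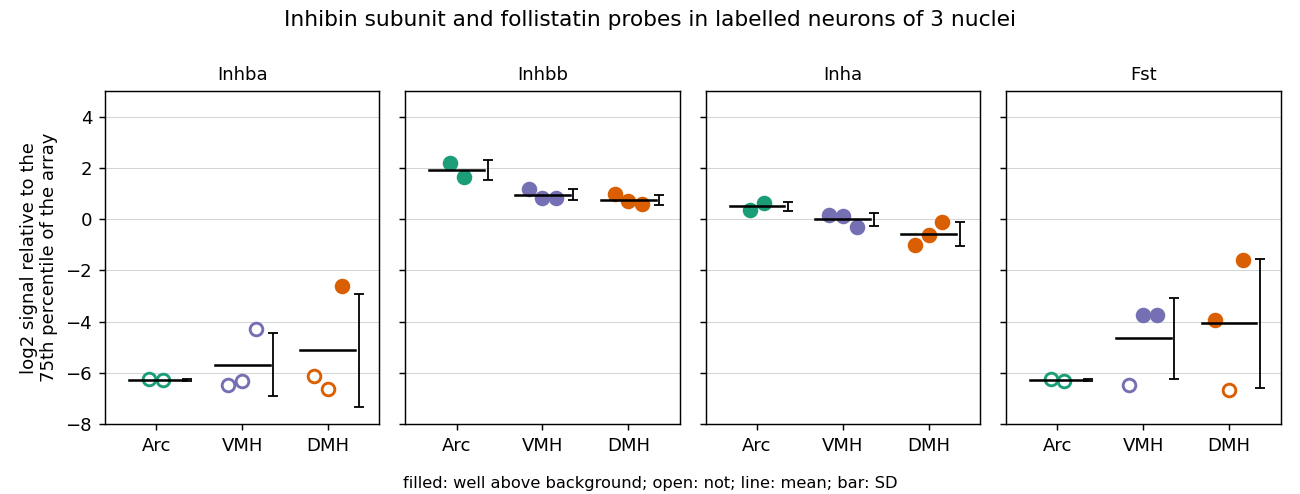
Levels of the probes of Inhba, Inhbb, Inha and Fst by nucleus, as log2 signal minus the array's 75th percentile; each point is 1 array, filled where well above background and open where not, with the mean as a line and the SD as a bar. The 2 Arc arrays lie above the other 6 for Inhbb and Inha, and the Inhba points are open except on DMH replicate 3, at -2.59.

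Of the 9 members 7 passed the filter on dim probes, each well above background on all arrays of at least 1 nucleus, and Inhba and Fst did not. Over these 7, the nucleus contrasts were those used to choose the members, and the counts are given without inference. With limma, 1 of 7 passed the threshold of an adjusted p under 0.05 in DMH, Acvr1c, lower, against 0.839% of 27419 genes in either direction and 0.474% lower. Acvr1c entered the fit through Arc and VMH, where it was measured, so this call was set by the choice and the filter. In VMH and in Arc 0 of 7 passed, against 1.34% and 0.609% of genes. An unadjusted p under 0.05 was seen for 2 members in VMH, 3 in DMH and 4 in Arc, against 13.1%, 16.3% and 15.7% of all genes. The count in DMH was 0 without DMH replicate 1, and 0 where probes had to be well above background on all 8 arrays, which leaves Acvr1c out. In VMH it was 1 in 3 of 17 alternatives: Acvr1b with normexp and with trended and robust eBayes, and Acvr1c without VMH replicate 2. In Arc it was 1 in 4 of 17, each time Acvr1c: with normexp, with trended and robust eBayes, with probes averaged per gene, and without VMH replicate 2. The median log2 difference of the members was 0.25 in VMH, -0.54 in DMH and 0.39 in Arc, against 0.006, -0.045 and 0.037 over all genes tested.

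The other genes of the pathway were 86 in 5 lists, of which 69 were measured and 17 were too dim in every nucleus. With limma, 1 of the 69 passed the test in DMH, and none passed in VMH or Arc. An unadjusted p under 0.05 was seen for 10 in VMH, 10 in DMH and 14 in Arc (14.5%, 14.5% and 20.3%), close to the shares over all genes in VMH and DMH and somewhat above in Arc. Their median log2 difference was 0.011 in VMH, -0.044 in DMH and 0.058 in Arc, close to that of all genes.

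Among the 27 other ligands, 21 were measured, and Gdf3, a ligand related to Nodal that signals through activin receptors, was the gene that passed. Its level was 2.32 and 2.07 in Arc, 2.21, 2.31 and 2.31 in VMH, and 0.86, 1.33 and 1.16 in DMH. All DMH arrays lay below all others, and the log2 difference was -1.12 ± 0.18 (SE; limma adjusted p = 0.0391). The call was lost when any 1 of the 8 arrays was left out, with limma adjusted p-values from 0.0588 to 0.121. Over all alternatives the difference stayed between -1.23 and -0.99, and the adjusted p ran from 0.0143 to 0.121. Inhbc and Inhbe, the remaining inhibin beta subunits, were measured in all nuclei and passed in none; their nucleus means ran from -3.15 to -2.25 and from -3.06 to -2.54.

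Of the 14 other receptors and co-receptors 12 were measured, and none passed in any nucleus. The 2 with the smallest p were Rgmb, a BMP co-receptor, and Igsf1, a membrane glycoprotein once proposed to bind inhibin. Rgmb stood at -0.18 and -0.64 in Arc against 0.42 to 1.78 over VMH and DMH, with a difference of -1.34 ± 0.35 (log2, SE; limma adjusted p = 0.153). Igsf1 stood at 0.70, 0.84 and 1.07 in VMH against 0.96 to 1.84 elsewhere, with a difference of -0.64 ± 0.20 (limma adjusted p = 0.219). Tgfbr1, the type I receptor for TGF-beta, and Bmpr2, a type II receptor for BMPs, did not pass either, with nucleus means from -3.03 to -2.28 and from 2.47 to 2.88.

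Of the 19 extracellular inhibitors 16 were measured, and none passed in any nucleus. Fstl3, a relative of follistatin that also binds activin, was measured on all 8 arrays. Its level was -1.04 and -0.49 in Arc, 0.34, -0.09 and -0.14 in VMH, and -0.74, -0.73 and -0.88 in DMH. The VMH arrays lay above all others, and the difference of 0.81 ± 0.21 (log2, SE) missed the threshold (limma adjusted p = 0.137). Twsg1, which modulates BMPs outside the cell, stood at -1.87, -2.64 and -3.14 in VMH and between -1.49 and -0.54 elsewhere, with a difference of -1.51 ± 0.35 (limma adjusted p = 0.104).

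Of the 16 Smads and regulators 12 were measured, and none passed in any nucleus. Smad3, phosphorylated by Acvr1b and Acvr1c, had the smallest p, with -1.40 and -1.43 in Arc, -0.12, -0.26 and 0.02 in VMH, and -0.41, -0.99 and -0.62 in DMH. The 3 nuclei did not overlap, in the order VMH, DMH, Arc. VMH exceeded the mean of the others by 0.93 ± 0.19 (log2, SE; limma adjusted p = 0.0711). Smad2 and the common partner Smad4 had nucleus means from -2.58 to -1.86 and from 1.83 to 2.06 and passed in no nucleus. Fkbp1a, which binds type I receptors, had a difference of -0.58 ± 0.19 in DMH (limma adjusted p = 0.205). That value ran from -0.67 to -0.12 over 17 alternatives, and from -0.67 to -0.43 when 1 array was left out. Smad7, which blocks the receptors from inside the cell, was among the 4 too dim for the fit.

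Of the 10 target genes 8 were measured, and none passed in any nucleus. Tsc22d1, a transcript induced by TGF-beta, had the smallest p. It stood at 3.11, 3.41 and 3.48 in DMH and between 3.93 and 4.35 elsewhere, a difference of -0.81 ± 0.18 (log2, SE; limma adjusted p = 0.118). This difference depended on the processing. It ran from -0.88 to -0.15 over 17 alternatives, and from -0.88 to -0.69 when 1 array was left out. The median of the 8 targets was 0.41 in VMH, -0.54 in DMH and 0.19 in Arc. Differences were above 0 for 6 of the 8 in VMH, 1 in DMH and 6 in Arc, against 50.7%, 45.4% and 53.6% of all genes.

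**Figure D3:**
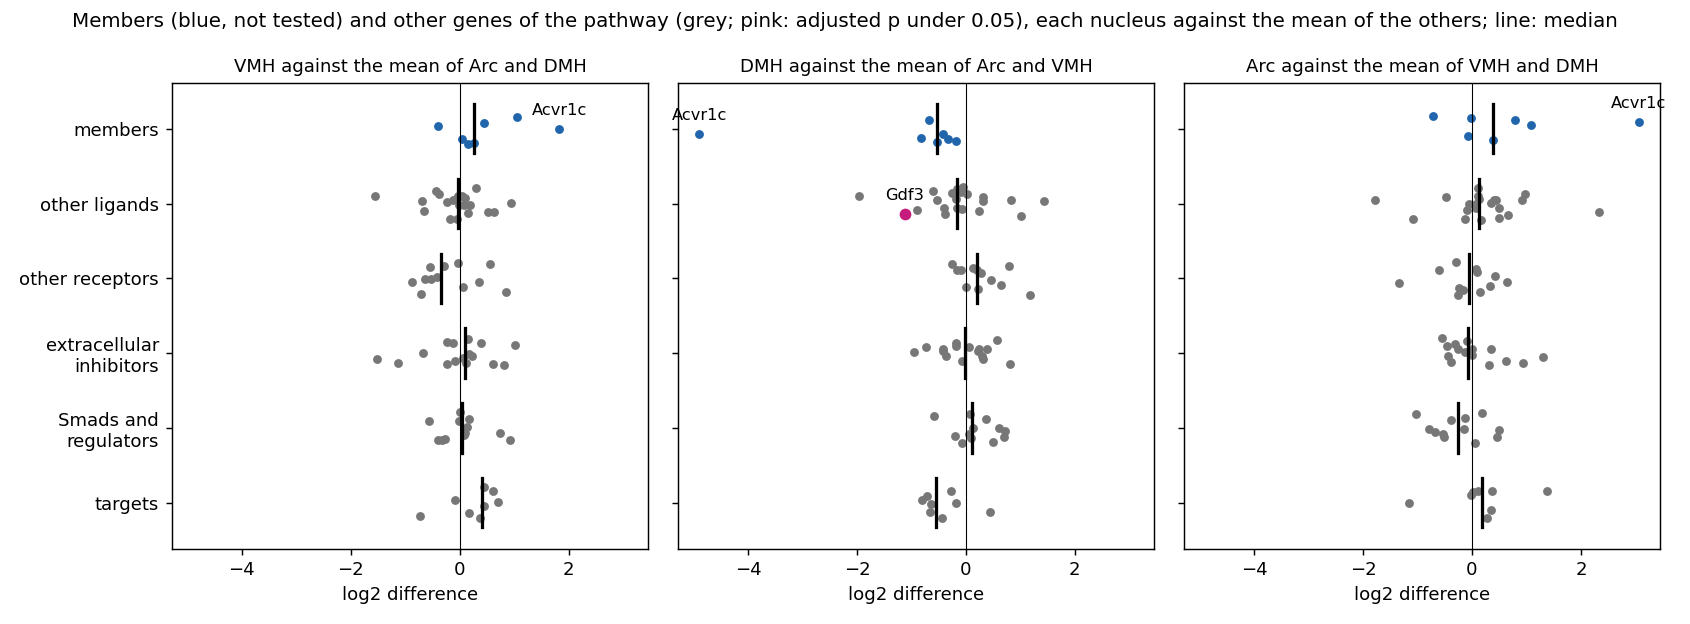
Log2 difference of each nucleus from the mean of the other nuclei for the 7 members in the fit (blue) and the 69 other measured genes of the pathway by list (grey, or pink where the limma adjusted p was under 0.05), with the median of each list as a line. Gdf3 in DMH is the only pink point, at -1.12, and Acvr1c lies apart from the other members in DMH, at -4.89, where DMH is read at background.

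The genes most like a member over the 8 arrays were taken for the 3 members with the widest range of nucleus means, by Pearson's r over 15319 genes. The arrays share a slide and fall into 3 nuclei, so r describes mainly the order of the nuclei. For Acvr1c these were Zfyve27 (r = 0.979), Fkbp6 (0.977), Rgs9 (0.969), Irg1 (0.965) and Sema4a (0.965). Rgs9, which speeds the shut-off of G proteins, stood at 4.44 and 4.10 in Arc, 4.18, 4.03 and 3.85 in VMH, and 3.02, 3.04 and 3.14 in DMH. All 5 were well above background on all 8 arrays, and the DMH arrays lay closer to the others for each than for Acvr1c. For Acvr1b they were Sh2d5 (r = 0.989), Rnf169 (0.98), Slc25a22 (0.98), Evc2 (0.977) and Hrh1 (0.973). Hrh1, the histamine H1 receptor, stood at 0.18 and -0.15 in Arc, 1.35, 0.93 and 1.38 in VMH, and 0.42, -0.02 and 0.41 in DMH. For Inhbb they were C2cd4d (r = 0.983), Dio3os (0.965), Lxn (0.963), Anxa4 (0.958) and Osm (0.956). Lxn, an inhibitor of carboxypeptidases, stood at 1.01 and 0.95 in Arc, -0.02, -0.29 and -0.16 in VMH, and -0.06, -0.38 and -0.50 in DMH.

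**Figure D4:**
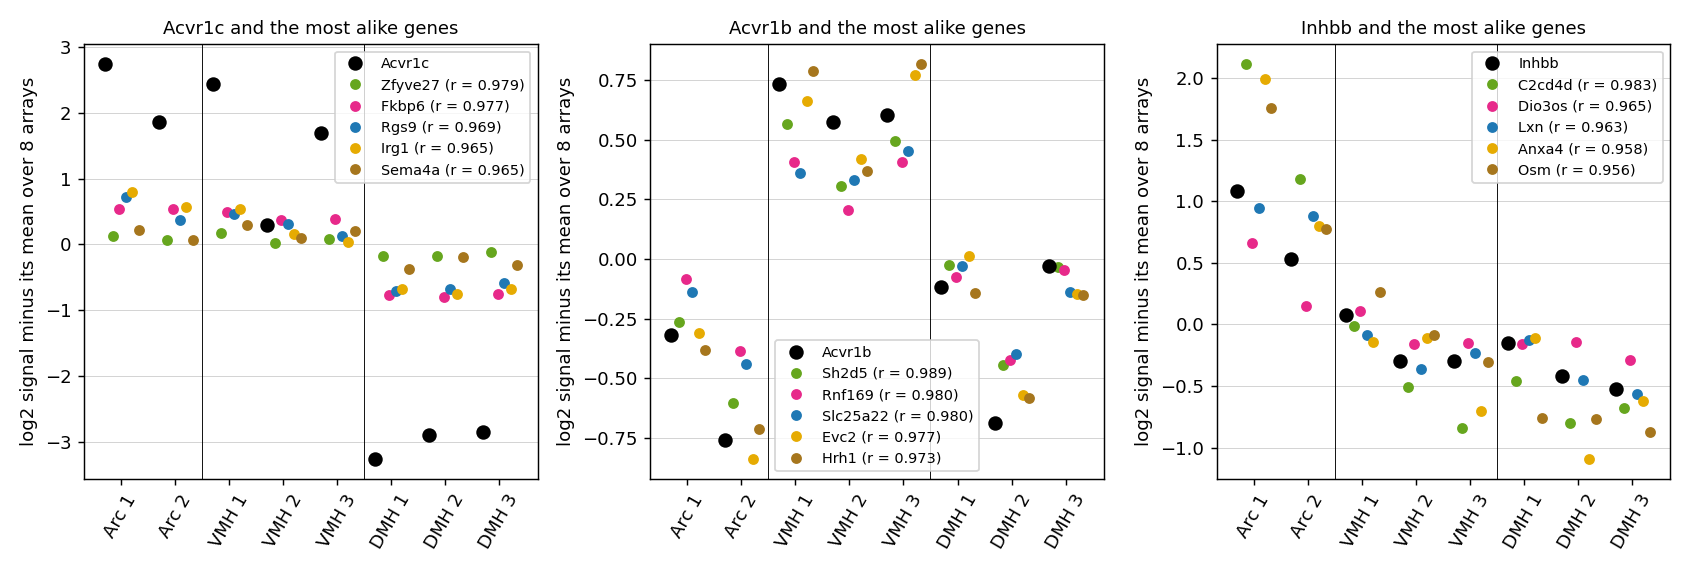
Log2 signal minus its mean over the 8 arrays for Acvr1c, Acvr1b and Inhbb (black) and the 5 genes most like each (colours, with Pearson's r), 1 point per gene and array. Acvr1c spans a wider range than the genes most like it, while Acvr1b and Inhbb lie within the range of theirs on most arrays.

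RefSeq promoters (GRCm38.p6) were given for 8 of the 9 members, 9 in all, since Acvr1c has 2 starts. Exact matches on both strands were searched in the 250 bases before each start for CAGAC (the Smad box), GTCTAGAC (the palindromic Smad element) and CAAGGTCA (the element of Nr5a1, a VMH transcription factor). The Smad box was found in 3 of the 9 promoters, those of Acvr2a, Acvr2b and Inha, and in 42.2% of 32851 promoters of the same length. The palindromic element was in 0 of the 9 and in 0.167% of all promoters, and the Nr5a1 element in 0 of the 9 and in 1.33%. The promoters shown are those of Acvr1c, Inhbb and Inha, members that separated a nucleus from the others. Acvr1b did so too, VMH by its probe 1, but its promoter is not printed. That promoter had 78.8% G and C, 42 CpG and no match. Capitals below mark the Smad box, here on the reverse strand.
Acvr1c start 1, chr2:58357759-58358008, minus strand: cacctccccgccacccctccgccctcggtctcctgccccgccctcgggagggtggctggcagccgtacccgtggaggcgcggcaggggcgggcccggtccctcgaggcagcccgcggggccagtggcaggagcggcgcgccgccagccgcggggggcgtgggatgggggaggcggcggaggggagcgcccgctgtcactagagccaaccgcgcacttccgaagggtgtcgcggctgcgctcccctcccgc
Acvr1c start 2, chr2:58324808-58325057, minus strand: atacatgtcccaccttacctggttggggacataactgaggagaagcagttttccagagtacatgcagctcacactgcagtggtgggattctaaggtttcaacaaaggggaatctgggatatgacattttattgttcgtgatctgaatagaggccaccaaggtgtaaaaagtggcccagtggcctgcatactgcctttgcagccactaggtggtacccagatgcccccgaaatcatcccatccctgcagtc
Inhbb, chr1:119422249-119422498, minus strand: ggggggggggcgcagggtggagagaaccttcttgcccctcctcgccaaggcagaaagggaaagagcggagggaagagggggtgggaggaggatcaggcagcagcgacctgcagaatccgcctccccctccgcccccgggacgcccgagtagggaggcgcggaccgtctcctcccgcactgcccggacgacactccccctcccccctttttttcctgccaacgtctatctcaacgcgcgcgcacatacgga
Inha, chr1:75507359-75507608, plus strand: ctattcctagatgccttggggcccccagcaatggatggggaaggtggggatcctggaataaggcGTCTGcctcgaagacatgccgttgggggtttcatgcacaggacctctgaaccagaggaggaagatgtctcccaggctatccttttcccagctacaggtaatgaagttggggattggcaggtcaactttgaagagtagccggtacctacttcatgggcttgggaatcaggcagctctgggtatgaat

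The promoters of Acvr1c differed in composition, with 79.6% G and C and 32 CpG at start 1 against 49.6% and 2 CpG at start 2, beside a median of 52.4% G and C over all promoters. Inhbb had 68.0% G and C and 21 CpG, and Inha 53.6% and 4 CpG. A match is a description of the sequence, and the absence of one says only that these letters are not in the window. Which start of Acvr1c was used in these neurons was not analysed here.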

How the data were processed

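The authors deposited spot intensities in the red channel (Cy5) of 8 one-colour Agilent arrays. Per the file headers and the submitters' processing notes, these were background-subtracted with Agilent Feature Extraction (version 11.5.1.1), with no scaling across arrays. The deposited flags for well above background, saturation and outliers were used too. The log2 processed signal was taken relative to each array's 75th percentile (non-control spots), without outlier spots and with a probe's spots averaged. Probes had to be well above background on all arrays of 1 nucleus or more, and the brightest one stood for its gene (27435 genes). The linear model had 1 mean for each nucleus over the 8 arrays (limma 3.58.1, lmFit and eBayes; R 4.3.3, data.table in version 1.17.8) and 5 residual degrees of freedom. Contrasts took each nucleus against the mean of the other nuclei, with Benjamini-Hochberg adjustment over 27419 genes and a threshold of 0.05. The number of arrays limits the precision.

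The 9 members and the gene lists were chosen with earlier results of these data known. Named were all members, the pathway genes past the threshold (or the 2 of a list with the smallest p) and the 5 genes most like each of 3 members. Inhbc, Inhbe, Tgfbr1, Bmpr2, Smad2, Smad4 and Smad7 are given outside this rule, chosen after their values were seen. So are the markers Fezf1, Grp, Nptx2, Bsx, Hmx2, Hmx3, Itgam, Csf1r, Col23a1, Crym, Nes, Tmem212, Cdh5, Pdgfrb, Gjb6, Mog and Ccdc153. Tgfb2, Fstl5 and Nbl1 are named because they passed under an alternative. A result for 1 gene that the rule names and 1 probe sequence are not reported here. All 9 members matched RefSeq symbols. Alternatives tried were normexp (offset 50), quantile normalization, another percentile, other filters for dim probes, averaging a gene's probes, eBayes with trend and robust settings, blocks (replicate number, slide row) and leaving out each array. The deposited value table was not used, since its values run in constant steps after the first 13 entries.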

Additional observations from a re-analysis of the deposited data

How the results depend on the processing

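Over 17 alternatives, Gdf3 kept its direction in DMH. The number of pathway genes past it in DMH, 1 in the fit reported, was 0 without a filter for dim probes and 0 with a block for slide row. It was 2 with the mean of a gene's probes (Gdf3 and Tgfb2), 2 with trended and robust eBayes (Gdf3 and Tsc22d1), and 0 (lowest and highest) when any 1 array was left out. In VMH the count of 0 became 1 with normexp correction (Smad3) and ran from 0 to 2 when 1 array was left out, the 2 being Fstl5 and Nbl1 without DMH replicate 1. In Arc the count of 0 became 1 with the mean of a gene's probes (Rgmb). The call of Gdf3 was lost in 11 of the 17. The fitted DMH difference of Acvr1c, with DMH read at background, ran from -5.18 to -2.55 over 16 alternatives, and the gene dropped out where probes had to be well above background on all 8 arrays. The causes were not tested. Over all genes, the counts of 368, 230 and 167 in VMH, DMH and Arc became 237, 111 and 89 without a filter and 215, 70 and 79 with a block for slide row. They became 527, 316 and 285 with normexp, and 510, 300 and 277 with trended and robust eBayes. With 1 array left out they ran from 106 to 345, from 40 to 279 and from 58 to 289.

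Samples with the same replicate number had residuals that correlated at 0.072 to 0.185 (7 pairs), against -0.126 to 0.015 for different numbers (14 pairs). Every pair with the same number thus lay above every pair with different numbers. The pairs are not independent, because residuals are taken from the mean of each nucleus. The 2 Arc arrays therefore have exactly opposite residuals. Where same-numbered pairs lie above 0, this centring pushes pairs with different numbers down, so the separation is partly built in. The labels do not say that the numbers pair samples, so the fit reported leaves them out. Whether same-numbered samples share animals or handling was not tested. With the replicate number as a block, 0 pathway genes passed in DMH, and 143, 60 and 40 genes passed in VMH, DMH and Arc.

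Signal over background limits Acvr1c in DMH to a bound and leaves Inhba and Fst without a comparison.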
